A study of Mus musculus with 20 samples.

Results

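The question was how far the effect of a pancreatic tumour on fibroadipogenic progenitors (FAPs) changed between day 14 and day 26. FAPs are the mesenchymal progenitors of muscle and can give rise to fibroblasts and fat cells. All libraries of those days were taken, 14 of the 20 in the series, with every gene symbol that both count tables share, 24394 of the 24446 that occur in the series. Of these, 13771 passed a filter on low counts and were tested.

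Cells were sorted from the hindlimb of male C57BL/6J mice as live, Hoechst-positive cells that carried SCA-1 and did not carry CD31, CD45 or α7-integrin. KPC mice had received 2000000 cells of the KPCY mouse pancreatic tumour line in 50 µL in the pancreas, and control mice a sham operation. The 4 groups were sham controls at day 14 (3 libraries), KPC at day 14 (4 libraries), sham controls at day 26 (4 libraries) and KPC at day 26 (3 libraries). Strain, sex, tissue and sort were common to all 4 groups, each day had its own controls, and neither age nor the number of mice per library is stated in the labels. The labels call the libraries biological replicates, and the p-values measure the spread between them.

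The KPC effect of a gene at a day is its log2 ratio of KPC to control libraries of that day. The change of the effect is the day 26 effect minus the day 14 effect, so a positive value means that the gene stood higher against its controls at day 26 than at day 14. It was tested for all genes at once with edgeR's quasi-likelihood test, and a gene with a Benjamini-Hochberg adjusted p under 0.05 is called. Levels are given as CPM, the counts of a gene relative to the library total after a scaling over the 14 libraries, with replicates in numerical order.

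Several signalling systems known to act on muscle stroma in tumour-bearing animals frame the description. Cytokines of the IL-6 family bind receptors that share gp130 and act through STAT3, and glucocorticoids act through a nuclear receptor on genes of metabolism and anti-inflammatory control. The circadian clock is a feedback loop in which BMAL1 and CLOCK drive their own repressors, and FAPs themselves make most of the collagen-rich matrix around the fibres.

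The day 26 KPC group was not uniform. Total counts ran from 12920993 to 25708195 per library. On the first principal component, which held 43.8% of the variance, KPC replicates 1 and 2 of day 26 lay at 124 and 110 and replicate 3 at -6.55, beside day 14 KPC libraries at -19 to -9.18 and controls at -32 to -12.7. The median absolute difference of a gene from the mean of its own day's controls was log2 0.622 and 0.669 in day 26 replicates 1 and 2, 0.217 in replicate 3, and 0.204 to 0.25 in the day 14 KPC libraries. The library codes also carry a number whose meaning the labels do not give. At day 14 that number separates all KPC libraries from all controls, so the number and the tumour cannot be told apart there. At day 26, 3 controls and KPC replicates 1 and 2 share 1 number. Marker genes of other cells also differed between libraries, several most in day 26 KPC replicate 1, and their values are given with the results on those cells. The median tested endothelial, neutrophil, myofibre, satellite cell, mural, tenocyte and glial marker was above its controls in every day 14 KPC library. The differences were log2 1.58 to 2.28 for endothelial, 0.706 to 2.36 for myofibre and 0.874 to 1.78 for glial markers. Macrophage and epithelial markers were mixed, at -0.063 to 1.61 and -0.811 to 1.02. In sorted bulk cells, fewer cells of a type and less RNA per cell cannot be told apart.

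**Figure D1:**
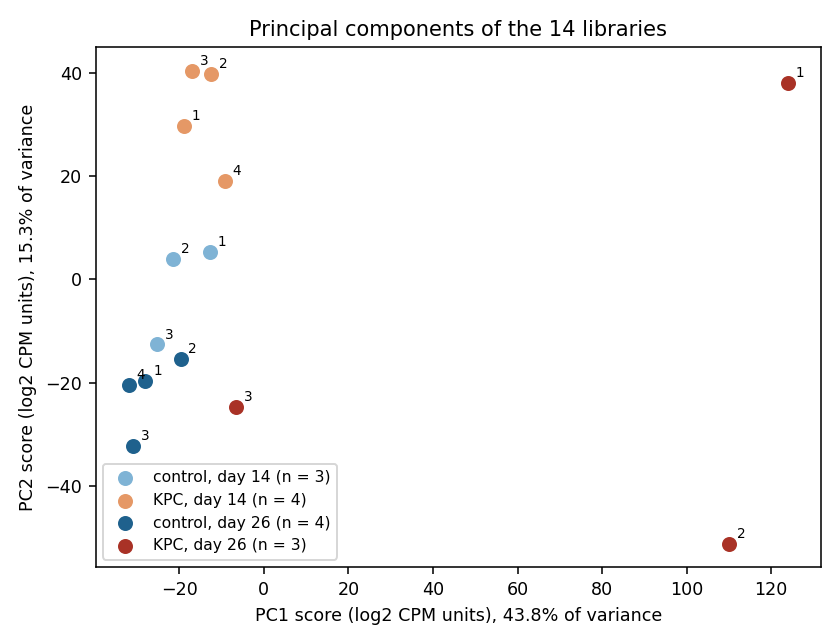
Scores of the 14 libraries on the first 2 principal components of log2 CPM (axes in log2 CPM units, share of variance on each axis), 1 point per library with its replicate number, coloured by group. KPC replicates 1 and 2 of day 26 lie at 124 and 110 on the first component and replicate 3 at -6.55, near the other libraries.

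The change of the KPC effect was called in 1113 of 13771 genes (8.08%). It was positive in 885 (6.43%) and negative in 228 (1.66%), while limma-voom called 584 positive and 471 negative. No gene was called for the KPC effect at day 14 alone in this fit, where 945 (6.86%) had an unadjusted p under 0.05 and DESeq2 called 24, and 4155 (30.2%) were called at day 26. The main fit shares its estimate of the spread over all groups, although the day 26 KPC libraries lay furthest apart on the first principal component. The shared estimate thus need not describe the spread of any single group. With each day fitted alone the numbers were 144 at day 14 and, at day 26, 0 by edgeR with 4502 at an unadjusted p under 0.05. Among the 885 genes, the fitted effect had opposite signs at the 2 days in 780 (88.1%), and in the other 105 it had the same sign and was larger at day 26. Of the 228 genes, 216 (94.7%) had effects of opposite sign. Choosing genes by the difference of the 2 effects favours opposite signs, and the share over all tested genes is not given here. These shares are therefore not read as a reversal of the KPC effect. In 156 of the 885 and 43 of the 228, both single-day effects had an unadjusted p under 0.05. The median effect over all tested genes was log2 -0.01 at day 14 and 0.02 at day 26, and the median change was 0.02.

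The called genes showed which libraries carried the change. Over the 885 genes, the median difference from controls was log2 -0.33, -0.311, -0.25 and -0.109 in the 4 day 14 KPC libraries and 1.17, 1.34 and 0.315 in the 3 day 26 KPC libraries. Over the 228 genes it was 0.316, 0.366, 0.295 and 0.183 at day 14 and -1.1, -1.21 and -0.441 at day 26. Replicate 3 of day 26 thus lay on the same side as replicates 1 and 2 at a smaller distance, and it was the one nearest its controls in 838 of the 885 genes (94.7%), against 69.1% of all tested genes. The KPC groups differed more between the days than the controls did in 735 of the 885 genes, and the controls differed more in 150. These medians describe genes chosen by the same contrast.

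The number of calls depended on single libraries. It was 0 without control replicate 1 or 3 of day 14, KPC replicate 1 or 2 of day 14, or control replicate 3 of day 26, so each gene reported here as called lost its call in those 5 fits. It was 123, 7 and 5896 without KPC replicates 1, 2 and 3 of day 26 (0.878%, 0.0496% and 41.7% of the genes tested). The calls were 0.728%, 0.0426% and 19.8% in the positive and 0.15%, 0.00709% and 21.9% in the negative direction, and all 1113 genes were among the 5896. Leaving out replicate 3 removes the library with the smallest difference from controls, so that count selects on the outcome. The smallest adjusted p over all genes was 0.0205, and 3120 to 7031 genes had an unadjusted p under 0.05 when any 1 library was left out, against 4257 (30.9%) with all 14.

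**Figure D2:**
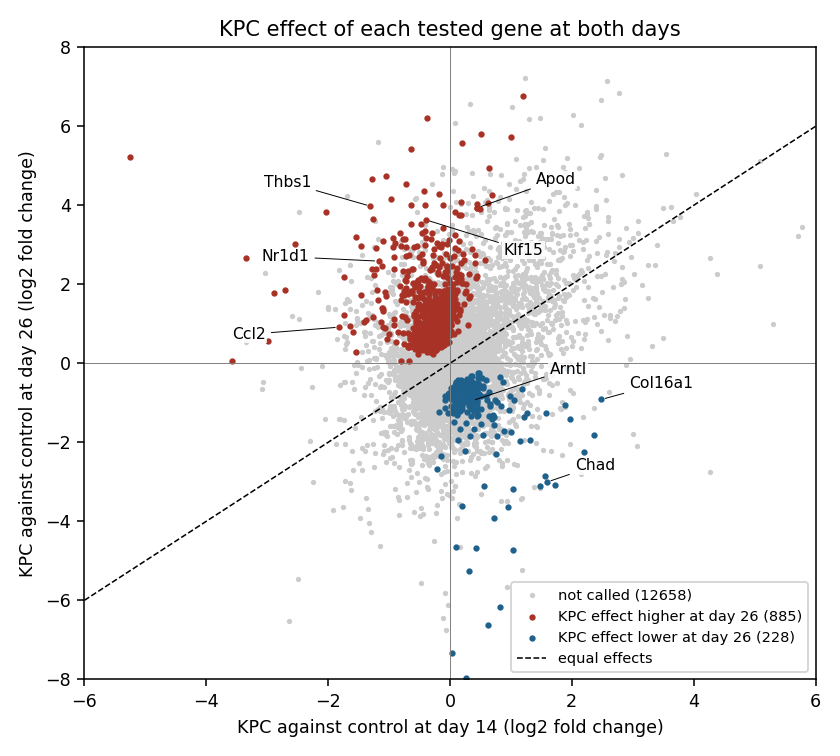
KPC effect of every tested gene at day 14 (horizontal axis) and day 26 (vertical axis), both as log2 fold change of KPC against control, with the 885 genes whose effect was called higher at day 26 in red, the 228 called lower in blue and the others in grey. The dashed line marks equal effects, 7 genes lie outside the axes, and most coloured points sit in the 2 quadrants where the effects have opposite signs (780 red and 216 blue). Coloured genes were chosen by the difference of the 2 effects, which favours opposite signs.

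Repressor and output genes of the clock had a higher KPC effect at day 26 than at day 14, and Arntl, an activator, a lower one. Of 19 tested clock genes, 10 were called higher at day 26 and 1 lower, against 6.43% and 1.66% of all tested genes. The list's median effect was log2 -0.30 at day 14 and 1.46 at day 26. The called genes included Nr1d1 and Nr1d2, which encode the REV-ERB repressors of Arntl, and Dbp, Tef and Hlf, the PAR-bZIP output factors. They also included Per1, Per3, Cry2 and Ciart, repressors of the loop, and Nfil3, which encodes a repressor that binds the same sites as the PAR-bZIP factors. Arntl, which encodes BMAL1, was the gene called lower. The median change was 1.77, against 0.02 over all tested genes. Without KPC replicates 1, 2 and 3 of day 26 in turn, 5, 1 and 14 clock genes were called higher and 1, 0 and 3 lower.

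The promoter of 5 of these genes is shown because the loop's proteins are known to act through short motifs near the start site, and these are the 4 genes called higher whose window held such a motif, with Arntl beside them. Each line gives the 250 bases before the RefSeq start of the gene (assembly GRCm38.p6), with capitals on the E-box CACGTG, a palindrome that BMAL1 and CLOCK bind, or on the D-box TTATGTAA, searched on both strands, which the PAR-bZIP factors and NFIL3 bind. The windows are Ciart at chr3:95882229-95882478 (minus strand), Per1 at chr11:69098699-69098948 (plus strand), Tef at chr15:81802423-81802672 (plus strand), Per3 at chr4:151044666-151044915 (minus strand) and Arntl at chr7:113207215-113207464 (plus strand).
Ciart: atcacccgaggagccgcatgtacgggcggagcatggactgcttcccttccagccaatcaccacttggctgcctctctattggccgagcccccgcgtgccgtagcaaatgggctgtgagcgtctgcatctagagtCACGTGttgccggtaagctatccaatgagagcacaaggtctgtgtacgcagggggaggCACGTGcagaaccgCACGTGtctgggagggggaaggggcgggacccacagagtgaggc
Per1: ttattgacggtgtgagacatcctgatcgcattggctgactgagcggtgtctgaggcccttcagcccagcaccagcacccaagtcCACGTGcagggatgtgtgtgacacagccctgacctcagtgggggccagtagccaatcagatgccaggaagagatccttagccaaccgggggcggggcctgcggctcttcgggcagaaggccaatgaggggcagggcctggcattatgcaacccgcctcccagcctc
Tef: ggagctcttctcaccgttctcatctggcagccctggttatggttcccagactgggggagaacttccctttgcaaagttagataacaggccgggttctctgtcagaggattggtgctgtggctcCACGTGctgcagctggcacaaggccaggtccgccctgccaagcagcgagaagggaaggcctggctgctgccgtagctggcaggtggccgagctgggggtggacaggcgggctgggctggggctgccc
Per3: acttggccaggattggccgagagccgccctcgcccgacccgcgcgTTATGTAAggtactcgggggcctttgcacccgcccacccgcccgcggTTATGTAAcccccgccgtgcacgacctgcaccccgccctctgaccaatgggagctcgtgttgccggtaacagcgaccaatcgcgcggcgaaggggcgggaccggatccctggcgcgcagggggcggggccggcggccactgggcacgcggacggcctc
Arntl: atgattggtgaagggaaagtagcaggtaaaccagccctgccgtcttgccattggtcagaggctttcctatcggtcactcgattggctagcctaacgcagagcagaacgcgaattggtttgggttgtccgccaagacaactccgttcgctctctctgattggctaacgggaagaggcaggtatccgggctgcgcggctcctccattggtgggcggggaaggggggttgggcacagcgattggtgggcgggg
The Ciart window held 3 E-boxes, which begin at -116, -58 and -44 from the start, and those of Per1 and Tef held 1 each, at -166 and -127. A second Tef window, not shown, also held 1 E-box, at -138. The Per3 window held 2 D-boxes, at -205 and -158. Neither motif was in the Arntl window. Ciart, Per1, Tef and Per3 were the 4 of the 10 genes called higher that held a motif, and neither motif was in the windows of the other 6, Nr1d1, Nr1d2, Dbp, Cry2, Hlf and Nfil3, or in the second window of Per1. Tables of RefSeq promoters matched 16 of the 19 tested clock genes with 21 windows, of which 6 held an E-box (28.6%) and 1 a D-box (4.76%). Over all 32851 windows of this length the shares were 6.02% and 0.819%, and over the 13350 windows of tested genes 8.07% and 0.449%. A match is a description of the letters and not a measured site.

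Nr1d1 lay at 218, 143 and 103 CPM in the day 14 controls, 62.9, 50.3, 89.7 and 71.5 in the day 14 KPC libraries, 19.2, 62.5, 46.7 and 52.6 in the day 26 controls and 204, 425 and 188 in the day 26 KPC libraries. All day 14 KPC libraries lay below the controls of their day and all day 26 KPC libraries above theirs. Its effect was log2 -1.17 at day 14 and 2.59 at day 26, a change of 3.76 ± 0.55 (SE, adjusted p = 0.0205). Nr1d2 lay at 155, 99.9 and 106 CPM in controls and 42.1, 38.8, 60.9 and 60.3 in KPC at day 14, and 10.5, 36.4, 16.8 and 29.3 in controls and 102, 151 and 75.9 in KPC at day 26, with the same order of the groups. Its effect was -1.25 at day 14 and 2.23 at day 26, and its change was 3.49 ± 0.51 (SE, adjusted p = 0.0205). The output gene Dbp lay at 30.1, 20.6 and 22.4 CPM in controls and 6.63, 9.36, 8.67 and 10.8 in KPC at day 14, and 5.67, 7.48, 4.33 and 13.2 in controls and 14.5, 36.2 and 26.1 in KPC at day 26, again without overlap at either day. The Dbp effect went from log2 -1.46 to 1.74, a change of 3.20 ± 0.50 (SE, adjusted p = 0.0205).

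Per3 lay at 38.8, 47.3 and 41.7 CPM in controls and 29.5, 26.3, 27.7 and 31.5 in KPC at day 14, and 24, 34.2, 22.1 and 21.1 in controls and 41.8, 81.1 and 54.7 in KPC at day 26. KPC and control libraries did not overlap at either day, and the change was 1.79 ± 0.29 (SE, adjusted p = 0.0205). Tef lay at 88.6, 91.2 and 85.9 CPM in controls and 64.9, 51.8, 59 and 74.4 in KPC at day 14, and 56.8, 67.4, 49.9 and 60.4 in controls and 200.2, 265 and 100.5 in KPC at day 26, and its change was 2.19 ± 0.33 (SE, adjusted p = 0.0205). In Tef, as in Per3, the day 14 KPC libraries were the lower ones and the day 26 KPC libraries the higher ones. Arntl was the mirror image, at 64.5, 73.5 and 75.3 CPM in controls and 88.2, 101, 99.9 and 75.7 in KPC at day 14, and 96, 93.1, 103 and 68.8 in controls and 36.4, 51.5 and 52.1 in KPC at day 26. Its KPC libraries lay above the controls at day 14 and below them at day 26, and the change was -1.31 ± 0.23 (SE, adjusted p = 0.0221). The changes were 2.27 for Per1, 1.95 for Cry2, 4.91 for Ciart, 1.63 for Hlf and 1.59 for Nfil3. Ciart was scarce, at 1.6, 9.07 and 0.63 CPM in the day 26 KPC libraries and at most 2.13 CPM elsewhere.

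The controls of the 2 days also differed in these genes. Between day 14 and day 26, Nr1d1 shifted by log2 -1.83 in controls and 1.92 in KPC, Nr1d2 by -2.50 and 1.09, and Dbp by -1.76 and 1.44. In Nr1d1, Nr1d2, Dbp, Tef and Per3, every day 14 control lay above every day 26 control. The change of the effect in these 5 genes therefore rests on the levels of both control groups as well as on the KPC groups. In Arntl the controls shifted by 0.33 and KPC by -0.97. The labels do not state the hour at which muscle was taken, and its part in these values was not tested. Nr1d1 shares exon sequence with Thra on the other strand and Dbp with Sphk2, and the labels do not say how the counting used strand.

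**Figure D3:**
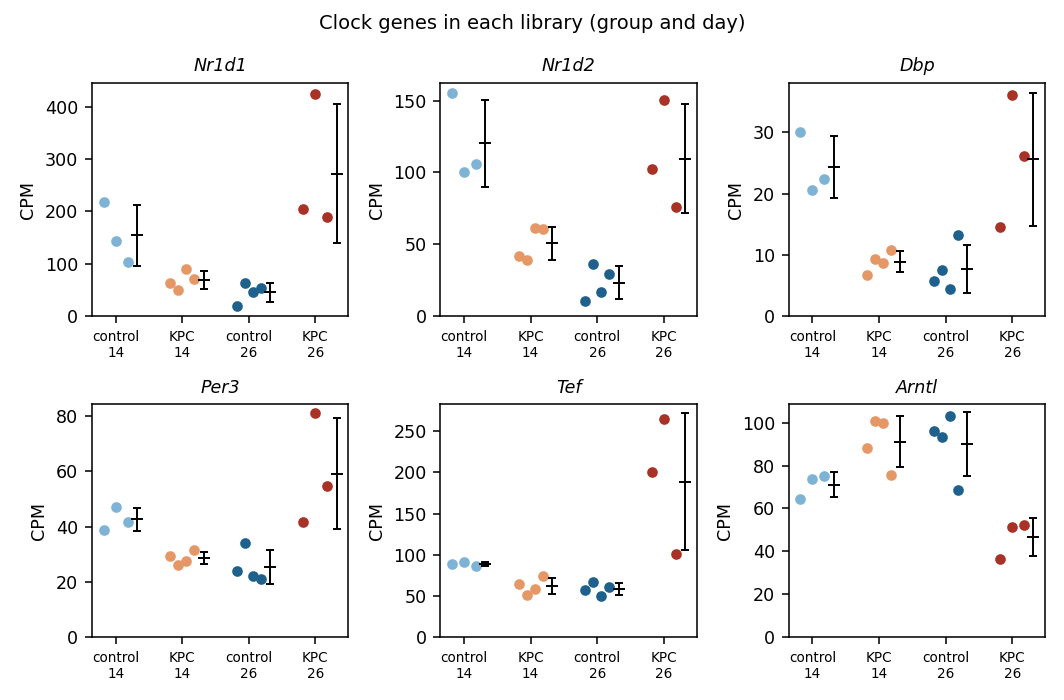
CPM of 6 clock genes in each of the 14 libraries (vertical axes in CPM from 0, 1 point per library, groups and days along the horizontal axes), with a bar at the group mean and whiskers of 1 SD beside the points. In Nr1d1 the day 14 KPC libraries lie at 50.3 to 89.7 CPM, below their controls at 103 to 218, and the day 26 KPC libraries at 188 to 425, above theirs at 19.2 to 62.5.

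All called members of the list of IL-6 family, STAT3 and acute-phase genes stood higher against controls at day 26. Of 28 tested genes, 14 were called higher at day 26 and 0 lower (6.43% and 1.66% of all genes), and 24 had a positive change. The median effect was log2 0.02 at day 14 and 1.67 at day 26. Of the ligands, Clcf1, which encodes a cytokine of the family, was called (1.49 ± 0.38 SE, adjusted p = 0.0369), Lif had a change of -0.50 that was not called (adjusted p = 0.299), and Osm, the ligand of Osmr, did not pass the filter, with 0 to 14 counts per group. Without KPC replicates 1, 2 and 3 of day 26 in turn, 4, 1 and 21 genes of the list were called higher, and in the last of these fits 1 was lower.

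Among the receptors, Osmr, the oncostatin M receptor chain, lay at 135, 100.0 and 112 CPM in the day 14 controls, 115, 98.1, 123 and 150.4 in the day 14 KPC libraries, 87.2, 98.8, 86.8 and 81.2 in the day 26 controls and 306, 414 and 241 in the day 26 KPC libraries. The day 14 groups overlapped, and all 3 day 26 KPC libraries, replicate 3 included, lay above every other library. The effect was log2 0.07 at day 14 and 1.86 at day 26, a change of 1.79 ± 0.26 (SE, adjusted p = 0.0205). Lifr, the leukaemia inhibitory factor receptor, lay at 167, 194 and 159.8 CPM in controls and 164, 143, 185 and 252 in KPC at day 14, and 176, 196, 177 and 105 in controls and 689.8, 1410.3 and 334 in KPC at day 26, and its change was 2.21 ± 0.52 (SE, adjusted p = 0.0318). Il6ra, the IL-6 binding chain, had a change of 1.85 ± 0.36 (SE, adjusted p = 0.0239) with 108, 171 and 73 CPM in the day 26 KPC libraries. The shared chain Il6st had a change of 0.02 ± 0.19 (SE) that was not called (adjusted p = 0.958). Il17ra, a receptor chain of another cytokine family, had the smallest p of all genes and was singled out for it. It lay at 75.2, 65.6 and 71.5 CPM in the day 14 controls, 42.5, 46.2, 51.2 and 56.2 in the day 14 KPC libraries, 60.8, 74, 51.3 and 49.1 in the day 26 controls and 175, 193 and 105 in the day 26 KPC libraries, without overlap at either day, and its effect went from log2 -0.53 to 1.42, a change of 1.95 ± 0.27 (SE, adjusted p = 0.0205).

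Among the transcription factors of the pathway, Stat3 lay at 211, 143 and 161 CPM in the day 14 controls, 152, 142, 150.2 and 179 in the day 14 KPC libraries, 182, 177, 157 and 155 in the day 26 controls and 721, 631 and 278 in the day 26 KPC libraries. The 3 day 26 KPC libraries were above all others, with replicate 3 closest to them, and the change was 1.84 ± 0.34 (SE, adjusted p = 0.0221). Cebpb, a bZIP factor induced by IL-6, lay at 211, 89.9 and 205 CPM in controls and 98.5, 129, 87.8 and 149.7 in KPC at day 14, and 102, 144, 106 and 132 in controls and 519, 715 and 286 in KPC at day 26, a change of 2.60 ± 0.45 (SE, adjusted p = 0.0221), and its relative Cebpd changed by 1.75 ± 0.50 (SE, adjusted p = 0.0472). In both genes all 3 day 26 KPC libraries lay above all 11 others. The feedback inhibitor Socs3 had effects of 0.34 and 1.90, and its change of 1.56 ± 0.61 (SE) was not called (adjusted p = 0.109). Its day 26 KPC replicate 3, at 1662 CPM, lay within the controls of that day, and without that library the change was 1.95 (adjusted p = 0.00294). Leaving that library out selects on the outcome, and 41.7% of all genes were called in that fit. Stat3 shares exon sequence with Stat5a, Cebpb with Tmem189 and Cebpd with Spidr.

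Of the target genes, Serpina3n, a secreted protease inhibitor, lay at 86.2, 108 and 140.2 CPM in controls and 131, 73.5, 104 and 135 in KPC at day 14, and 124, 100.2, 103 and 232 in controls and 1831, 1436 and 361 in KPC at day 26, and its change was 3.12 ± 0.63 (SE, adjusted p = 0.0262). Day 26 KPC replicates 1 and 2 were several times above replicate 3, which was still above all controls. Ptx3, a soluble pattern-recognition protein, lay at 145, 134 and 136 CPM in controls and 29.5, 53.7, 21.2 and 78.8 in KPC at day 14, and 141, 154, 54.8 and 71 in controls and 295, 156 and 101 in KPC at day 26. All day 14 KPC libraries were below their controls, and at day 26 replicates 1 and 2 were above the controls and replicate 3 among them. The effect went from log2 -1.59 to 0.81, a change of 2.40 ± 0.66 (SE, adjusted p = 0.0453). Il6 had the same order, with 45, 43.9 and 28 CPM in controls and 9.63, 12.4, 1.62 and 23.7 in KPC at day 14, and its change of 3.33 ± 0.99 (SE) was not called (adjusted p = 0.0543). Lcn2, which encodes lipocalin 2, was at 0.649 to 3.77 CPM in all libraries but the day 26 KPC libraries, at 105, 13.5 and 7.2, and was not called (change 3.40 ± 1.08 SE, adjusted p = 0.0646).

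Of 23 tested genes known as glucocorticoid targets, 15 were called higher at day 26 than at day 14, 0 lower and 8 not. Of all genes 6.43% were called higher and 1.66% lower. For the day 26 effect alone 17 were called higher in KPC and 1 lower (17.8% and 12.4% of all genes). The list's median change was 2.27, and its median effect was log2 -0.39 at day 14 and 1.62 at day 26. The called genes were Klf15, Glul, Mt1, Mt2, Pdk4, Tsc22d3, Sgk1, Zbtb16, Ddit4, Per1, Klf9, Fkbp5, Cdkn1a, Hif3a and Errfi1. Several of them, such as Mt1, Mt2, Pdk4 and Cdkn1a, are also known to respond to metals, fasting or stress, and Per1 is also a clock gene. Without KPC replicates 1, 2 and 3 of day 26 in turn, 6, 0 and 18 genes of the list were called higher, and in the last of these fits 2 were lower.

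Klf15, a factor that drives amino acid breakdown, lay at 19.6, 16.2 and 12 CPM in the day 14 controls, 9.01, 7.26, 10.7 and 21.2 in the day 14 KPC libraries, 8.47, 10.6, 10.8 and 10.7 in the day 26 controls and 142, 208 and 29.3 in the day 26 KPC libraries. All 3 day 26 KPC libraries lay above all others, replicate 3 by the least, and the change was 4.03 ± 0.71 (SE, adjusted p = 0.0221). Glul, glutamine synthetase, lay at 406, 300.3 and 339 CPM in controls and 236, 279, 277 and 320.1 in KPC at day 14, and 345, 393, 323 and 312 in controls and 1809.9, 1842 and 559.6 in KPC at day 26, and its change was 2.36 ± 0.42 (SE, adjusted p = 0.0221). Here too no other library reached day 26 KPC replicate 3. Mt2, a metallothionein, lay at 721, 288 and 526 CPM in controls and 189.7, 229.9, 109.6 and 353 in KPC at day 14, and 723, 741, 545 and 480.2 in controls and 5334, 3230.4 and 1277 in KPC at day 26. At day 14, 3 of the 4 KPC libraries were below the lowest control, and at day 26 all 3 were above the highest. The effect of Mt2 went from log2 -1.21 to 2.40, a change of 3.61 ± 0.64 (SE, adjusted p = 0.0221), and its neighbour Mt1 changed by 3.79 ± 0.69 (SE, adjusted p = 0.0221).

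Pdk4, which restrains the entry of pyruvate into the citrate cycle, lay at 32.7, 23.5 and 23.6 CPM in controls and 12.3, 20.5, 21.8 and 25.2 in KPC at day 14, and 21.8, 15.1, 19 and 16.2 in controls and 172, 342 and 33.1 in KPC at day 26, a change of 3.76 ± 0.73 (SE, adjusted p = 0.0239). Tsc22d3, which encodes the anti-inflammatory protein GILZ, lay at 925, 268 and 746 CPM in controls and 269, 463, 509.9 and 364 in KPC at day 14, and 213, 245, 264 and 239.6 in controls and 623, 1133 and 694 in KPC at day 26. Its day 14 controls were spread, with replicate 2 far below the other 2, and were higher than all day 26 controls. The change of Tsc22d3 was 2.45 ± 0.48 (SE, adjusted p = 0.0239), with -1.25 between the days in controls and 1.02 in KPC. The co-chaperone gene Fkbp5 changed by 2.77 ± 0.68 (SE, adjusted p = 0.0367) and the zinc-finger gene Zbtb16 by 3.92 ± 0.84 (SE, adjusted p = 0.0292), and in both day 14 control replicate 1 was the highest library of its day. Nr3c1, the receptor itself, had an effect of 0.11 at day 14 and -0.67 at day 26, and its change of -0.78 ± 0.24 (SE) was not called (adjusted p = 0.0593).

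**Figure D4:**
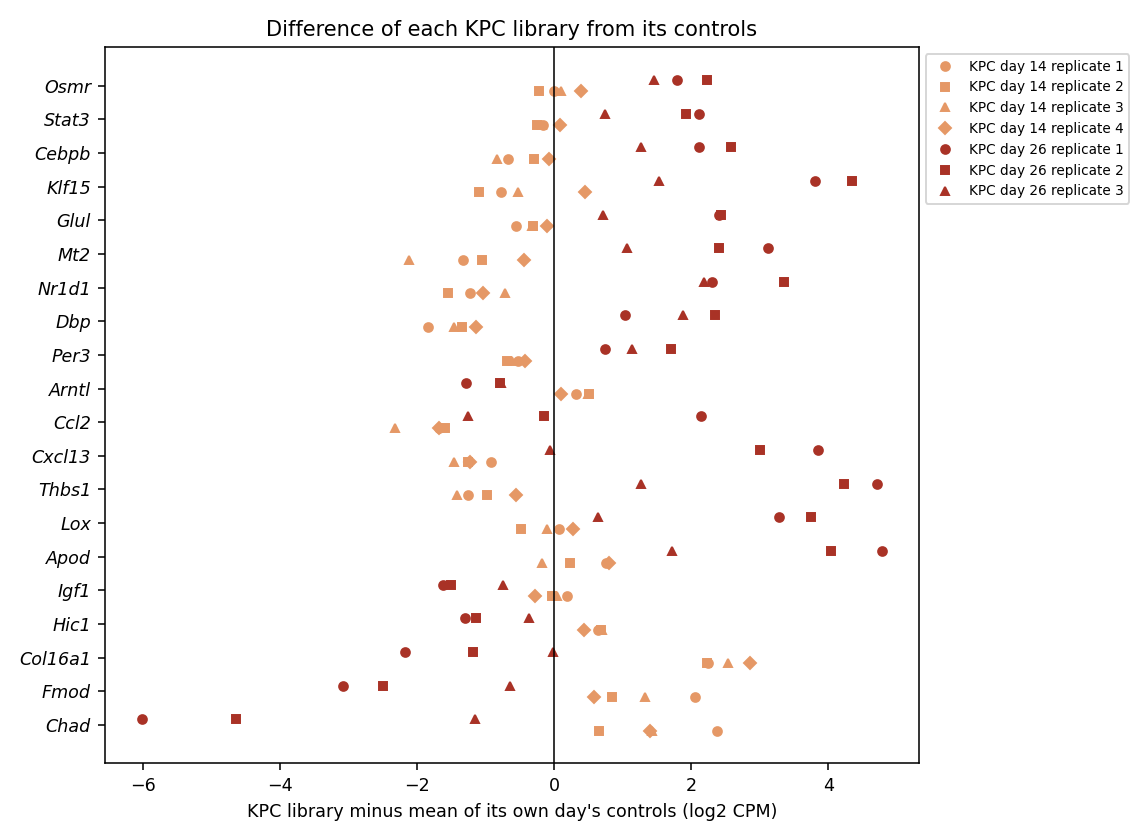
Difference of each KPC library from the mean of its own day's controls, in log2 CPM, for 20 genes, with day 14 libraries in orange and day 26 libraries in dark red and a symbol for each replicate. Of the day 26 libraries replicate 3 (triangles) lies nearest 0 in most genes, as in Klf15, while in Nr1d1 it lies beside replicate 1.

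NF-κB is the central transcription factor of inflammatory signalling, and chemokines are among its targets. Of 20 tested NF-κB pathway genes, 6 were called higher at day 26 and 0 lower, with a median effect of log2 -0.33 at day 14 and 0.52 at day 26. Of 23 chemokines and cytokines, 3 were called higher and 0 lower, and the median change was 0.40. Both lists stand beside 6.43% of all genes called higher and 1.66% lower. Without KPC replicates 1, 2 and 3 of day 26 in turn, 1, 0 and 13 genes of the NF-κB list and 0, 0 and 7 chemokines and cytokines were called higher. Without replicate 3, 2 genes of the NF-κB list and 4 chemokines and cytokines were also called lower, beside 19.8% of all genes called higher and 21.9% lower in that fit.

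Rela, the p65 subunit, lay at 107, 89.9 and 98.9 CPM in controls and 68.5, 78.3, 68.2 and 84.1 in KPC at day 14, and 94.6, 114, 103 and 98.5 in controls and 153, 147 and 117 in KPC at day 26. The groups did not overlap at either day, lower in KPC at day 14 and higher at day 26, and the change was 0.84 ± 0.18 (SE, adjusted p = 0.0262). Birc3, an inhibitor of apoptosis and a target of the pathway, lay at 45.4, 45 and 50.2 CPM in controls and 28.5, 30.6, 22.5 and 36.6 in KPC at day 14, and 35.5, 44.1, 28.9 and 34.1 in controls and 62.3, 55.4 and 45.4 in KPC at day 26, with the same order and a change of 1.27 ± 0.24 (SE, adjusted p = 0.0221). Of the chemokines, Ccl2, which attracts monocytes, lay at 73.2, 56.2 and 45.1 CPM in the day 14 controls, 17.7, 18.9, 11.3 and 17.8 in the day 14 KPC libraries, 45.9, 56.7, 65 and 46.4 in the day 26 controls and 233, 47.8 and 22.1 in the day 26 KPC libraries. Day 14 KPC libraries were all below their controls, while at day 26 replicate 1 was above its controls, replicate 2 among them and replicate 3 below them. Its effect went from log2 -1.82 to 0.92, and its change of 2.74 ± 0.78 (SE, adjusted p = 0.0494) was called, although the day 26 effect was not (adjusted p = 0.208). Ccl7, a relative that binds the same receptors, had the same order of libraries and a change of 2.48 ± 0.70 (SE, adjusted p = 0.0478). The summed macrophage markers had the same order in the day 26 KPC libraries, at 539, 54.1 and 30.2 CPM against 20.9 to 31.1 in controls, and their part in these values was not tested. Cxcl13, which attracts B cells, lay at 71.3, 74.9 and 78.5 CPM in controls and 39.2, 31.1, 27.2 and 31.9 in KPC at day 14, and 44.3, 45.1, 41 and 74.6 in controls and 717, 398 and 47.4 in KPC at day 26. Its day 26 KPC replicate 3 was among the controls, and its change was 4.13 ± 0.79 (SE, adjusted p = 0.0239).

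Immediate-early genes are transcribed within minutes of a stimulus and are also known to be induced by tissue digestion. Of 24 tested, 6 were called higher at day 26 and 0 lower (6.43% and 1.66% of all genes). The median effect was log2 -0.11 at day 14 and 0.91 at day 26. Egr3 lay at 32.8, 9.3 and 66.6 CPM in controls and 3.27, 4.48, 5.07 and 5.45 in KPC at day 14, and 7.35, 7.53, 8.34 and 9.4 in controls and 25.6, 5.24 and 5.31 in KPC at day 26. Its change of 3.55 ± 0.85 (SE, adjusted p = 0.0341) rested on day 14, where every KPC library was below every control (effect -2.99), while at day 26 only replicate 1 was above the controls and replicates 2 and 3 were below. Fosl1, an AP-1 subunit, was likewise below its controls in all day 14 KPC libraries (3.57, 0.791 and 3.4 CPM in controls and 0.398, 0.487, 0 and 0.428 in KPC at day 14), and at day 26 replicate 1 alone was above them, at 15.5, 2.36 and 0.998 CPM in KPC against 1.35 to 2.59. Its change was 4.68 ± 1.20 (SE, adjusted p = 0.0369). Nr4a3, an orphan nuclear receptor, lay above all its controls in all 3 day 26 KPC libraries (94.3, 52.1 and 38.3 CPM against 10.9 to 24.9), with a change of 3.06 ± 0.68 (SE, adjusted p = 0.0307). Myc, a growth regulator, lay at 213, 137 and 153 CPM in controls and 83.6, 114, 57.6 and 158 in KPC at day 14, and 279.8, 298, 227 and 157 in controls and 1215, 940.4 and 342 in KPC at day 26, a change of 2.49 ± 0.56 (SE, adjusted p = 0.0307). Fos and Jun themselves had changes of -0.26 and -0.24 that were not called (adjusted p = 0.661 and 0.65). Without KPC replicate 1 or 2 of day 26, 0 genes of the list were called.

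Several of the largest positive changes, taken among genes with a mean of at least 1 on the log2 CPM scale, were of genes that were low outside day 26 KPC replicates 1 and 2. Cdo1, cysteine dioxygenase, lay at 2.46, 4.02 and 3.81 CPM in controls and 2.61, 2.63, 0.956 and 2.37 in KPC at day 14, and 1.93, 2.54, 2.21 and 1.66 in controls and 183, 84.2 and 2.63 in KPC at day 26. Replicates 1 and 2 of day 26 stood far above all others and replicate 3 was just above its controls, and the change was 6.06 ± 1.22 (SE, adjusted p = 0.0262). Cish, a STAT5 target that feeds back on cytokine receptors, lay at 6.21, 3.17 and 3.35 CPM in controls and 1.59, 2, 0.882 and 2.37 in KPC at day 14, and 1.56, 1.42, 1.35 and 2.69 in controls and 85.8, 47.5 and 1.31 in KPC at day 26. Replicates 1 and 2 of day 26 stood far above all others and replicate 3 was below its controls, and the change was 5.96 ± 1.19 (SE, adjusted p = 0.0262). Sphk1, sphingosine kinase 1, had 70.6, 34.2 and 2.05 CPM in the day 26 KPC libraries and 0.623 to 1.81 in their controls, a change of 5.79 ± 1.22 (SE, adjusted p = 0.0292). Aspg, an asparaginase, had 54.7, 43.3 and 2.47 against 0.509 to 1.08 CPM, a change of 5.38 ± 1.06 (SE, adjusted p = 0.0246).

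Trp53inp1, a p53 target linked to autophagy, lay at 29.8, 53.4 and 30.8 CPM in controls and 29.7, 23, 31.7 and 48.7 in KPC at day 14, and 22.1, 18.7, 13.9 and 17.2 in controls and 370.0, 645 and 28.8 in KPC at day 26, a change of 4.46 ± 0.92 (SE, adjusted p = 0.0271). Its replicate 3 was again the lowest of the day 26 KPC libraries and above all 4 controls. Arc, an immediate-early gene best known from neurons, had 255, 235 and 31.7 CPM in day 26 KPC against 12.7 to 23.2 in controls, and its change was 4.74 ± 0.92 (SE, adjusted p = 0.0239). Sele, which encodes E-selectin and is known from activated endothelium, lay at 84.5, 7.24 and 3.05 CPM in day 26 KPC and 0.441 to 0.916 in controls, a change of 4.73 ± 1.34 (SE, adjusted p = 0.0483). Summed endothelial markers were highest in the same library, day 26 KPC replicate 1, at 1534 CPM, and their part in the Sele value was not tested. Without KPC replicate 3 of day 26 the changes of Cdo1, Cish and Trp53inp1 were 6.57 (adjusted p = 1.69e-07), 6.48 (adjusted p = 2.31e-07) and 4.99 (adjusted p = 6.03e-06). These genes were picked for large changes, and that fit selects on the outcome, with 41.7% of all genes called, so its p-values add no support.

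Several secreted and lipid-handling genes shared this order of libraries. Igfbp3, an IGF-binding protein, had 130.5 to 167 CPM in day 14 controls, 138, 239, 149 and 335 in day 14 KPC, 130.1, 199, 123 and 72.3 in day 26 controls and 9887, 11942 and 225 in day 26 KPC. Replicates 1 and 2 of day 26 were far above all others, and replicate 3, though above its controls, overlapped the day 14 KPC libraries in its difference from controls. Its change was 5.31 ± 1.14 (SE, adjusted p = 0.0292). Apod, a lipocalin of FAPs and fibroblasts, lay at 770.1, 799 and 891 CPM in controls and 1380.5, 955, 720.1 and 1427 in KPC at day 14, and 584, 752, 555 and 959 in controls and 19077, 11389 and 2289 in KPC at day 26, a change of 3.49 ± 0.68 (SE, adjusted p = 0.0239). Igf1, a growth factor for muscle fibres, went down, at 219, 304 and 301 CPM in controls and 309.9, 264, 281 and 223 in KPC at day 14, and 285, 219, 286 and 201 in controls and 79.5, 85.6 and 146 in KPC at day 26. All 3 day 26 KPC libraries were below every other library, and the change was -1.23 ± 0.31 (SE, adjusted p = 0.0358). Of 32 tested secreted growth factors and antagonists, 2 were called higher (Figf, which encodes VEGF-D, and Igfbp3) and 2 lower (Igf1 and Wnt5a, a signalling ligand of the WNT family). The share called higher is near that of all genes, 6.43%, and 1.66% of all genes were called lower.

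Of 24 tested adipogenic and lipid droplet genes, 5 were called higher and 0 lower (6.43% and 1.66% of all genes). The 5 were Plin4, Cebpb, Dgat2, Pnpla2 and Cebpd. Plin4, a lipid droplet coat protein, lay at 6.21, 6.27 and 7.99 CPM in controls and 5.61, 6.04, 5.37 and 3.66 in KPC at day 14, and 2.55, 2.14, 1.23 and 3.43 in controls and 77.9, 24.3 and 9.67 in KPC at day 26, lower than controls in all day 14 KPC libraries and higher in all day 26 KPC libraries. Its change was 4.40 ± 0.75 (SE, adjusted p = 0.0221). Dgat2, the last enzyme of triglyceride synthesis, changed by 2.83 ± 0.63 (SE, adjusted p = 0.0296), and Pnpla2, which encodes the first lipase of triglyceride breakdown, by 2.94 ± 0.71 (SE, adjusted p = 0.0353). Pparg, the master factor of fat cell formation, had a change of 0.85 ± 0.60 (SE) that was not called (adjusted p = 0.34), and so had Adipoq (6.23 ± 2.39 SE, adjusted p = 0.106) and Fabp4 (0.92 ± 1.01 SE, adjusted p = 0.545).

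Matrix genes were mostly on the lower side at day 26, with few calls. Of 33 tested fibrillar collagen and matrix genes, 3 were called lower (Col16a1, Eln and Fmod) and 1 higher (Thbs2), against 1.66% and 6.43% of all genes. The change was negative in 29 of the 33, and the median effect was log2 0.08 at day 14 and -1.20 at day 26. In 19 of the 33 all day 26 KPC libraries lay further down against their controls than all day 14 KPC libraries, against 15% of all tested genes. Without KPC replicate 3 of day 26 the median change was -2.50 in place of -1.27, and 22 genes were called lower, beside 21.9% of all genes in that fit.

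Col3a1 and Col1a1, the major fibrillar collagens of muscle, were not called. Col3a1 lay at 19609, 15537 and 17644 CPM in the day 14 controls, 19876, 18052, 21104 and 14422 in the day 14 KPC libraries, 26564, 17239, 21034 and 26109 in the day 26 controls and 827, 1207 and 12451 in the day 26 KPC libraries. The day 14 groups overlapped, and all 3 day 26 KPC libraries were below their controls, replicates 1 and 2 by far more than replicate 3. The change was -2.30 ± 0.96 (SE) and was not called (adjusted p = 0.129), and it was -4.57 (adjusted p = 9.3e-08) without replicate 3. That last fit selects on the outcome and called 41.7% of all genes. Col1a1 lay at 7746, 6794 and 5869 CPM in controls and 7793, 6803, 7636 and 5554 in KPC at day 14, and 11057, 6753, 8915 and 9218 in controls and 373, 584 and 6142 in KPC at day 26, with the same order and a change of -1.96 ± 0.98 (SE, adjusted p = 0.189). Eln, elastin, lay at 478, 510.2 and 410.1 CPM in controls and 648, 885, 1165 and 383 in KPC at day 14, and 836, 547, 854 and 570.1 in controls and 136, 134 and 448 in KPC at day 26, and its change of -2.28 ± 0.61 (SE, adjusted p = 0.0426) was called.

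Col16a1, which encodes a fibril-associated collagen, took a different course. It lay at 23.6, 28.3 and 24.4 CPM in the day 14 controls, 120.3, 119.7, 147 and 184 in the day 14 KPC libraries, 258, 198, 238 and 129 in the day 26 controls and 43.9, 87.5 and 196 in the day 26 KPC libraries. At day 14 every KPC library was above every control, and at day 26 replicates 1 and 2 were below every control and replicate 3 among them. Its effect went from log2 2.49 to -0.91, a change of -3.40 ± 0.57 (SE, adjusted p = 0.0221). The controls alone shifted by 2.97 between the days and KPC by -0.62, and the day 14 controls were the lowest of the 4 groups. Hic1, a transcription factor that marks mesenchymal progenitors of muscle, had a similar order at a smaller size, at 119, 153 and 115 CPM in controls and 198, 206, 208 and 173 in KPC at day 14, and 207, 171, 278 and 309 in controls and 94.8, 106 and 181 in KPC at day 26, with 0.88 in controls and -0.68 in KPC between the days and a change of -1.53 ± 0.33 (SE, adjusted p = 0.0292).

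Genes typical of tendon fibroblasts were among those with the most negative changes. Chad, chondroadherin, lay at 18.8, 19.1 and 16.9 CPM in the day 14 controls, 95.1, 28.7, 49.3 and 48.1 in the day 14 KPC libraries, 7.22, 14, 8.91 and 46.1 in the day 26 controls and 0.119, 0.471 and 6.36 in the day 26 KPC libraries. KPC libraries were above controls at day 14 and below them at day 26, without overlap at either day, and the change was -4.60 ± 1.23 (SE, adjusted p = 0.0428). Cilp2, a cartilage matrix protein, lay at 13.2, 8.71 and 9.12 CPM in controls and 57.1, 21.5, 25.1 and 18.4 in KPC at day 14, and 7.47, 5.65, 5.93 and 19.8 in controls and 0.594, 1.12 and 2.26 in KPC at day 26, in the same order, with a change of -4.41 ± 0.80 (SE, adjusted p = 0.0221). Fmod, fibromodulin, lay at 148, 130.0 and 144 CPM in controls and 581, 253, 349.9 and 209 in KPC at day 14, and 76.1, 91.6, 62.6 and 273 in controls and 12.2, 18.4 and 66.7 in KPC at day 26, with replicate 3 of day 26 within its controls and a change of -3.26 ± 0.88 (SE, adjusted p = 0.0438). Spon2, a secreted matrix protein, lay at 33.4, 45.6 and 34.8 CPM in controls and 102, 163, 109 and 49.9 in KPC at day 14, and 144, 59.8, 133 and 144 in controls and 1.84, 1.94 and 37.9 in KPC at day 26, a change of -4.58 ± 1.18 (SE, adjusted p = 0.0385). Of 10 tested tenocyte markers, 3 were called lower (Cilp2, Chad and Fmod) and 0 higher, against 1.66% and 6.43% of all genes. The list's median effect was log2 1.43 at day 14 and -1.89 at day 26. The tendon factor Scx (change -4.15 ± 1.30 SE, adjusted p = 0.0594) and Tnmd, tenomodulin (change -2.74 ± 1.00 SE, adjusted p = 0.0927), were not called. The summed level of the 10 markers was 648 to 1036 CPM in controls and 837 to 1918 in KPC at day 14, and 449 to 1293 and 539 to 1078 at day 26. Its part in the matrix values was not tested.

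A smaller set of matrix-related genes changed upwards. Thbs1, a secreted glycoprotein that activates latent TGF-β, lay at 733, 143 and 444 CPM in the day 14 controls, 150.5, 183, 135 and 244 in the day 14 KPC libraries, 183, 187, 186 and 181 in the day 26 controls and 4829, 3451 and 441 in the day 26 KPC libraries. All day 26 KPC libraries were above their controls, and the change was 5.28 ± 0.88 (SE, adjusted p = 0.0221). Thbs2, its close relative, changed by 1.82 ± 0.42 (SE, adjusted p = 0.0307). Lox, the enzyme that crosslinks collagen, lay at 246, 274 and 307 CPM in controls and 289, 196, 254 and 332 in KPC at day 14, and 165, 172, 122 and 207 in controls and 1584, 2192 and 256 in KPC at day 26. Replicates 1 and 2 of day 26 were far above the rest and replicate 3 just above its controls, and the change was 3.05 ± 0.67 (SE, adjusted p = 0.0296). Of 29 matrix-processing genes 2 were called higher (Lox and Mmp14) and 0 lower, near the 6.43% and 1.66% of all genes. The change was negative in 18 of the 29, with a median of -0.35, and DESeq2 called 6 lower and 4 higher. For the day 26 effect alone, 12 were called lower in KPC and 3 higher (12.4% and 17.8% of all genes).

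**Figure D5:**
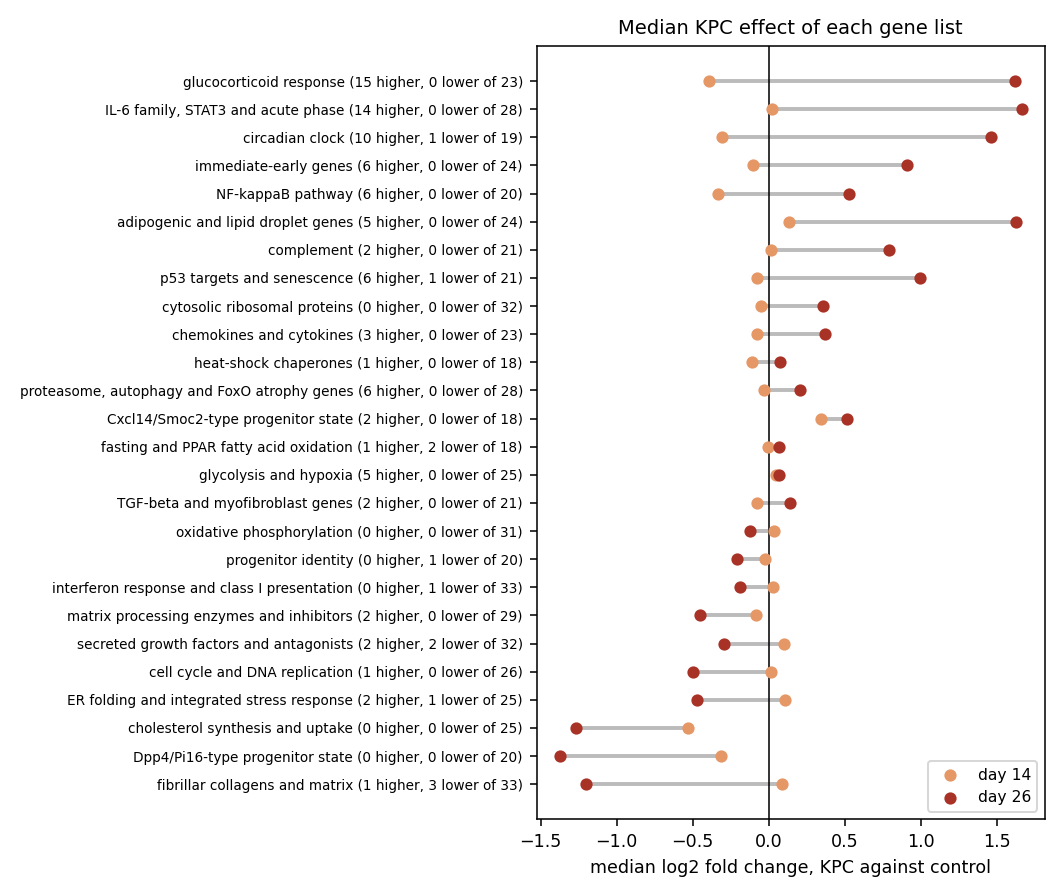
Median KPC effect of each gene list at day 14 (orange) and day 26 (dark red), in log2 fold change of KPC against control, with the number of genes called higher and lower for the change and the number tested in brackets. The glucocorticoid, IL-6 family and clock lists have day 26 medians of 1.62, 1.67 and 1.46, and the matrix list one of -1.20.

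Genes that define the sorted cells were compared next. Pdgfra, the usual surface marker of FAPs, lay at 1204 to 1345 CPM in day 14 controls, 1392 to 1634 in day 14 KPC, 1311 to 1447 in day 26 controls and 1275 to 1471 in day 26 KPC. Its change was -0.25 ± 0.21 (SE), with a 95% interval of -0.69 to 0.20, and was not called (adjusted p = 0.425). Ly6a, which encodes the sort marker SCA-1, had a change of -0.44 ± 0.35 (SE, interval -1.19 to 0.32, adjusted p = 0.405), with 624, 526 and 1252 CPM in day 26 KPC against 1054 to 1484 in controls. Both genes were thus present in every library. Of 20 tested progenitor identity genes 1 was called lower, Hic1, and 0 higher, against 1.66% and 6.43% of all genes.

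Muscle FAPs are often divided into a Dpp4/Pi16-type and a Cxcl14/Smoc2-type state. Of 20 tested genes of the first, 0 were called in either direction by edgeR, 5 had an unadjusted p under 0.05, limma-voom called 0 and DESeq2 2, both lower. The change was negative in 19 of the 20. The list's median effect was log2 -0.31 at day 14 and -1.38 at day 26. Pi16, a surface protease inhibitor of that state, lay at 1988, 2758 and 2639 CPM in the day 14 controls, 1478, 1942, 1796 and 1782 in the day 14 KPC libraries, 4064, 3849, 3756 and 3318 in the day 26 controls and 117, 274 and 2659.9 in the day 26 KPC libraries. KPC libraries were below controls at both days, and the change was -1.39 ± 1.01 (SE, adjusted p = 0.357), or -3.78 (adjusted p = 1.55e-06) without replicate 3. Ackr3, an atypical chemokine receptor, had 393, 375 and 945 CPM in day 26 KPC against 1160.3 to 1377 in controls and a change of -1.11 ± 0.37 (SE, adjusted p = 0.0726). Of 18 genes of the second state, 2 were called higher, Apod and Fmo2, and 0 lower, against 6.43% and 1.66% of all genes. The median change of that list was 0.23. Without KPC replicate 3 of day 26, a fit that selects on the outcome, 18 of the 20 Dpp4/Pi16-type genes were called lower, beside 21.9% of all genes.

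At day 26, 19 of 25 tested cholesterol synthesis and uptake genes were called lower in KPC and 1 higher (12.4% and 17.8% of all genes), and no gene was called for the day 14 effect. Of the 25, 0 were called for the change by edgeR, 12 had an unadjusted p under 0.05, limma-voom called 1 lower and DESeq2 4 lower, and 21 changes were negative. The median effect was log2 -0.53 at day 14 and -1.27 at day 26. Sqle, squalene epoxidase, lay at 46.8, 79.4 and 54.2 CPM in the day 14 controls, 30.8, 36.3, 36.3 and 18.7 in the day 14 KPC libraries, 36.9, 27.9, 58.9 and 69.7 in the day 26 controls and 8.91, 5.18 and 13.3 in the day 26 KPC libraries. KPC libraries were below controls at both days, and the change of -1.42 ± 0.52 (SE) was not called (adjusted p = 0.0909). Hmgcs1, which makes the precursor of mevalonate, had effects of -0.78 and -1.96 (change -1.17 ± 0.39 SE, adjusted p = 0.073), and Nsdhl, a later enzyme, -0.41 and -1.49 (change -1.08 ± 0.32 SE, adjusted p = 0.0504). In all 3 genes the day 26 effect was further below 0, without a call for the difference.

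Of 25 glycolysis and hypoxia genes, 5 were called higher and 0 lower (6.43% and 1.66% of all genes). The 5 were Adm, Bnip3, Pfkfb3, Hk2 and Slc2a1. Adm, which encodes the vasodilator adrenomedullin, lay at 80.3, 92.8 and 97.7 CPM in controls and 88.8, 84.1, 104 and 103 in KPC at day 14, and 123, 122, 90.5 and 95 in controls and 609.8, 1507 and 326 in KPC at day 26, with all day 26 KPC libraries above all others and a change of 2.84 ± 0.50 (SE, adjusted p = 0.0221). The enzymes of the lower glycolytic chain in the list, Gapdh, Pgk1, Pkm and Ldha, were not called, with changes of -0.19, -0.42, -0.17 and -0.34. Of 28 proteasome, autophagy and FoxO atrophy genes, 6 were called higher and 0 lower. These were the autophagy genes Bnip3 (3.40 ± 0.69 SE, adjusted p = 0.0262), Ulk1 (1.80 ± 0.39 SE, adjusted p = 0.0292), Map1lc3b, Gabarapl1 and Sqstm1, and Fbxo32 (1.84 ± 0.49 SE, adjusted p = 0.0415), which encodes the ubiquitin ligase atrogin-1. No proteasome subunit was among them.

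In the other lists, 6 of 21 p53 target and senescence genes were called higher, among them Mdm2, the negative regulator of p53 (0.94 ± 0.22 SE, adjusted p = 0.031), and 1 lower, Ccng1. All counts in this paragraph stand beside 6.43% of all genes called higher and 1.66% lower. A count of 1 gene is therefore not read as a trait of its list. Of 25 genes of endoplasmic reticulum folding and the integrated stress response, 2 were called higher, Atf4 (1.07 ± 0.31 SE, adjusted p = 0.0483) and Ppp1r15a, and 1 lower, Pdia3 (-1.03 ± 0.30 SE, adjusted p = 0.0494), a disulphide isomerase. The change was negative in 16 of these 25, with a median of -0.49, and DESeq2 called 8 lower and 2 higher. Of 33 interferon genes 1 was called lower, Gbp2 (-0.75 ± 0.21 SE, adjusted p = 0.047), and 0 higher. Of 21 complement genes 2 were called higher, C4b and Cfd. C4b has close copies, and the counting may split reads among them. Of 26 cell-cycle genes 1 was called higher, Mcm7 (1.93 ± 0.53 SE, adjusted p = 0.0452), while 17 changes were negative and the list's median change was -0.45. Of 18 heat-shock genes 1 was called higher, Bag3, and of 18 fasting genes 1, Pdk4, with 2 lower, Acadm and Cpt2, enzymes of fatty acid oxidation. Of 32 ribosomal protein genes and 31 oxidative phosphorylation genes, 0 were called by edgeR, limma-voom or DESeq2, and 9 and 5 had an unadjusted p under 0.05. The ribosomal list had a positive change in 31 of 32 genes with a median of 0.42, and 23 of 31 oxidative phosphorylation genes had a negative one with a median of -0.24.

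Markers of other cell types were present in every group, and several sums were highest in day 26 KPC replicate 1. The summed level of 16 endothelial genes was 427 to 535 CPM in controls and 635 to 871 in KPC at day 14, 418 to 614 in controls at day 26, and 1534, 375 and 479 in day 26 KPC. The sum of 16 macrophage genes was 539 CPM in day 26 KPC replicate 1, 54.1 and 30.2 in replicates 2 and 3, and 18.2 to 54.8 in the other libraries. The sum of 10 satellite cell genes was 754, 392 and 258 CPM in day 26 KPC and 189 to 267 in the other groups. Of the 6 satellite cell genes tested, however, 5 had a negative change, and the list's median change was -0.59. Of the tested markers, 0 of 16 endothelial, 0 of 17 myofibre, 0 of 11 mural, 0 of 6 neutrophil, 0 of 4 epithelial, 0 of 1 lymphocyte and 0 of 1 erythroid genes were called by edgeR. An unadjusted p under 0.05 was found for 1 of the endothelial, 2 of the myofibre and 1 erythroid genes. Limma-voom called 0 of the endothelial, myofibre, mural and neutrophil genes, and DESeq2 1 of them, a myofibre gene. The neutrophil sum was 108, 5.83 and 9.19 CPM in day 26 KPC and 0.309 to 16 in the other groups. The epithelial markers Krt8, Krt18 and Cldn7 failed the filter, with 185, 117 and 109 counts in day 26 KPC and 0 to 47 in each other group. Tff1, which also failed it, had 2 and 8 to 73. The sum of all 10 epithelial markers was 24.6, 3.83 and 8.35 CPM in day 26 KPC and 4.67 to 31.7 in the other groups. Of 13 macrophage genes 1 was called higher, Cd68 (2.69 ± 0.66 SE, adjusted p = 0.0337), a lysosomal protein, beside 6.43% of all genes. Without day 26 KPC replicate 1 the median change of the macrophage list was -0.77 in place of 2.18, and that of the endothelial list -1.28 in place of 0.60. The endothelial median was also negative with limma-voom, at -0.22.

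The genes of the negative gates followed. Pecam1, which encodes CD31, lay at 24.1, 16.3 and 7.99 CPM in the day 14 controls, 44.9, 74.3, 54.6 and 45 in the day 14 KPC libraries, 13.3, 16.4, 4.7 and 7.39 in the day 26 controls and 257, 27.6 and 13.1 in the day 26 KPC libraries. KPC libraries were above controls at day 14, and at day 26 replicate 1 was far above all others. Its change was 1.50 ± 1.10 (SE) and was not called (adjusted p = 0.361). Ptprc (CD45), at 6.12, 0.118 and 0.525 CPM in day 26 KPC, and Itga7 (α7-integrin), at 19.9, 4.77 and 3.26, had changes of -0.11 ± 1.48 (SE) and -0.11 ± 0.73 (SE, adjusted p = 0.968 and 0.933). Both were higher in KPC at both days, with effects of log2 2.19 and 2.08 for Ptprc and 1.69 and 1.58 for Itga7. At day 14 Itga7 lay at 5.25 to 13.2 CPM in KPC and 1.80 to 3.23 in controls. Of these single-day effects, only that of Itga7 at day 26 was called (adjusted p = 0.033). Of 10 glial markers 2 were called lower, Pmp22 and Ncam1, and of 6 tested satellite cell markers 1 higher, Sdc4. Of all genes 1.66% were called lower and 6.43% higher. The part of such cells in the called changes was not tested.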

How the data were processed

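RNA of sorted FAPs was sequenced as paired 59-base reads from stranded messenger RNA libraries, per the labels' protocols. The authors deposited 1 table of raw counts per gene symbol and day, and the submitters' processing notes name build mm10, STAR, Bowtie, bcl2fastq 2.20, R 4.2.1 and DESeq2 1.36.0. Neither the counting program nor its strand setting is stated there or in the labels.

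The day 14 and day 26 tables were joined on symbols, which lost 25 symbols that had been turned into calendar dates in the day 14 table. Genes were kept by edgeR's filter (minimum count 10, minimum total 15), scaled by TMM and fitted with 1 mean per group in edgeR 4.0.16 under R 4.3.3 (robust quasi-likelihood, 2-sided, Benjamini-Hochberg over 13771 genes). SEs were taken from the F statistic. Log2 CPM values used a prior count of 2. The fit was checked on simulated counts with known changes. The simulated libraries all had the same spread and every day 26 KPC library the same changes. That check therefore does not cover the uneven day 26 KPC group. Total counts were 12920993 to 25708195 per library.

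The genes and the gene lists were chosen with earlier results of these data known. Genes were named by rule as the 10 largest called changes in each direction at a mean of 1 or more on the log2 CPM scale with no overlap of KPC libraries between days, up to 3 genes per list by smallest p, and the sort genes and Pdgfra. Other genes named, such as Il17ra, Il6ra, Lifr, Serpina3n, Ptx3, Tsc22d3, Dbp, Per3, Arntl, Egr3, Col3a1 and Pi16, were chosen after their values were seen. Among those the rule picks, 1 gene is not reported here. Of 742 list symbols 737 matched directly and 2 by a synonym. Of 85 genes given per library, 9 share exon sequence with another tested gene. Alternatives were DESeq2 1.42.0, limma-voom (limma 3.58.1), other scalings and filters, a replicate block, all 20 libraries, library codes and leaving out each library, and, chosen after seeing the data, each day fitted alone.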

Additional observations from a re-analysis of the deposited data

Results flagged for a closer look

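The KPC effect differed between day 14 and day 26 by the test of the difference itself in 1113 genes, of which those given per library are listed here by the log2 change of the effect. The largest positive changes were 6.06 for Cdo1, 5.96 for Cish, 5.79 for Sphk1, 5.38 for Aspg, 5.31 for Igfbp3, 5.28 for Thbs1, 4.91 for Ciart, 4.74 for Arc, 4.73 for Sele, 4.68 for Fosl1, 4.46 for Trp53inp1 and 4.40 for Plin4. Next in size were 4.13 for Cxcl13, 4.03 for Klf15, 3.92 for Zbtb16, 3.79 for Mt1, 3.76 for Nr1d1, 3.76 for Pdk4, 3.61 for Mt2, 3.55 for Egr3, 3.49 for Apod, 3.49 for Nr1d2, 3.40 for Bnip3 and 3.20 for Dbp. Changes of intermediate size were 3.12 for Serpina3n, 3.06 for Nr4a3, 3.05 for Lox, 2.84 for Adm, 2.83 for Dgat2, 2.77 for Fkbp5, 2.74 for Ccl2, 2.69 for Cd68, 2.60 for Cebpb, 2.49 for Myc, 2.48 for Ccl7 and 2.45 for Tsc22d3. Smaller changes were 2.40 for Ptx3, 2.36 for Glul, 2.27 for Per1, 2.21 for Lifr, 2.19 for Tef, 1.95 for Cry2, 1.95 for Il17ra, 1.93 for Mcm7, 1.85 for Il6ra, 1.84 for Stat3, 1.84 for Fbxo32 and 1.82 for Thbs2. The smallest positive changes were 1.80 for Ulk1, 1.79 for Per3, 1.79 for Osmr, 1.75 for Cebpd, 1.27 for Birc3, 1.07 for Atf4, 0.94 for Mdm2 and 0.84 for Rela. Negative changes were -4.60 for Chad, -4.58 for Spon2, -4.41 for Cilp2, -3.40 for Col16a1, -3.26 for Fmod, -2.28 for Eln, -1.53 for Hic1, -1.31 for Arntl, -1.23 for Igf1, -1.03 for Pdia3 and -0.75 for Gbp2.

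In 15 of 170 groups of 4 libraries examined, 1 library stood apart from the other 3 by Dixon's criterion, which chance alone meets in about 1 of 20 groups. In control day 26 replicate 2 the value was 54.6 CPM for Il6ra, 59.8 CPM for Spon2 and 0.916 CPM for Sele. In control day 26 replicate 4 the value was 105 CPM for Lifr and 74.6 CPM for Cxcl13. In control day 26 replicate 1 the value was 8.47 CPM for Klf15 and 58 CPM for Zbtb16. In KPC day 14 replicate 3 the value was 0.147 CPM for Ciart, 11.3 CPM for Ccl2, 11.8 CPM for Ccl7, 0 CPM for Fosl1 and 0.956 CPM for Cdo1. In KPC day 14 replicate 4 the value was 477 CPM for Thbs2, 2.68 CPM for Aspg and 44.2 CPM for Ulk1.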

How the results depend on the processing

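The number of genes with a called change, 1113, lay within 1.5 times of that value with limma-voom, weights per group, RLE size factors, library size alone and a stricter filter. It was 2315 with DESeq2, 4281 with limma-voom and a weight per library, 666 without a filter, 2024 with all 20 libraries in the fit and 5545 with the libraries of the shared code number at day 26. The fit with the shared code number leaves out KPC replicate 3 and control replicate 4 of day 26. It thus also drops the KPC library of day 26 with the smallest difference from controls, and its counts select on the outcome. Leaving out 1 library at a time gave 0 to 5896 calls. Same-numbered libraries deviated together in 3 of 19 pairs (r over 0.1, range -0.177 to 0.194). With 3 or 4 libraries per group this cannot decide whether the numbers pair the samples, and a replicate block gave 26 calls. For the day 14 effect, with 0 calls, DESeq2 gave 24, a weight per library 518, a weight per group 14, all 20 libraries 2, the shared code number 11, the day fitted alone 144, and leaving out 1 library 0 to 10. For the day 26 effect, with 4155 calls, a weight per group gave 1512, the shared code number 7033, the day fitted alone 0, and leaving out 1 library 1379 to 7544. Of 2116 values of single genes under alternatives, 1274 kept direction and side of the threshold, 765 lost the call, 65 gained one and 12 changed sign. The last were Pecam1, at -0.79 to 1.96 when 1 library was left out, Ptprc, at 0.18 with the shared code number and -2.87 to 0.40 when 1 library was left out, and Itga7, at 0.29 and -1.32 to 0.25. The causes were not tested. Groups of 3 or 4 libraries and the spread of day 26 KPC limit the precision.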
